A study of Mus musculus with 4 samples.

Results

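The genes described here encode 10 subunits of voltage-gated calcium channels: the pore subunits Cacna1a, Cacna1b, Cacna1e, Cacna1g, Cacna1h and Cacna1i, the alpha2delta subunits Cacna2d1, Cacna2d2 and Cacna2d3, and the beta subunit Cacnb4. They were chosen by name, as the rows of the count tables with these symbols, and all 10 were found among the 40091 genes listed in the 4 tables together. The study asked which genes and cells of the mouse thalamus change after a thalamic haemorrhage, a cause of central pain after stroke. Nuclei were isolated from thalamic tissue of wild-type (WT) C57BL6 mice aged 7 to 8 weeks and their RNA was counted per nucleus with unique molecular identifiers (UMIs), tags that count each captured RNA molecule once. The COL group (2 libraries) had received collagenase IV (Coll IV, 0.01 U per 10 nl), an enzyme that breaks down the vessel wall, in the right ventral posteromedial and ventral posterolateral nuclei, and the NS group (2 libraries) had received saline. Tissue was taken at day 7, and each library pooled 3 mice, so that the spread between libraries is a spread between pools and single animals cannot be read.

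Voltage-gated calcium channels let calcium enter a cell when its membrane depolarises. Channels of the P/Q, N and R types (pores Cacna1a, Cacna1b and Cacna1e) open on strong depolarisation and trigger transmitter release, whereas T-type channels (Cacna1g, Cacna1h and Cacna1i) open near the resting potential and give thalamic neurons their low-threshold bursts. Alpha2delta subunits carry channels to the surface and the synapse and include the receptors of gabapentin and pregabalin, and beta subunits such as Cacnb4 bind the high-voltage pores inside the cell. In the thalamus, relay neurons are known for Cacna1g and neurons of the reticular nucleus for Cacna1h and Cacna1i.

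The pore stretches below are shown because they hold the residue that sets T-type pores apart from the others. Each gives the coding sequence of the pore loop of repeat 3, spliced from the annotated transcript (GRCm38, which is mm10), 5′ to 3′, with the codon of the selectivity filter in capitals: an aspartate codon in the T-type genes and a glutamate codon in the high-voltage genes.
Cacna1g: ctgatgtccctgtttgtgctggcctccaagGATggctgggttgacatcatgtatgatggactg
Cacna1h: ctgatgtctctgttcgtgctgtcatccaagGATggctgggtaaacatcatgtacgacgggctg
Cacna1i: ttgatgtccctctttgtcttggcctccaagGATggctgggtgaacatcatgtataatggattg
Cacna1a: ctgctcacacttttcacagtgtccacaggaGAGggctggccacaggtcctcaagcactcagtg
Cacna1b: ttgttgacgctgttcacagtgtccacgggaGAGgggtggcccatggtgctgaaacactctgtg
Cacna1e: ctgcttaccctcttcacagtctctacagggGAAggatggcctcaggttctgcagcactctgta
The T-type stretches lie on the minus strand at chr11:94426441-94426503 (Cacna1g) and chr17:25383478-25383540 (Cacna1h) and on the plus strand at chr15:80376777-80376839 (Cacna1i), each within the 24th exon of its transcript. The other pore stretches cross a splice junction, on the plus strand between bases 84581308 and 84583577 of chromosome 8 (Cacna1a), and on the minus strand between 24650610 and 24651124 of chromosome 2 (Cacna1b) and between 154443984 and 154444915 of chromosome 1 (Cacna1e). Over the 63 bases, Cacna1g shared 85.7% with Cacna1h and 87.3% with Cacna1i, but 49.2% with Cacna1a.

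The alpha2delta stretches are shown because they hold the arginines that gabapentin needs. Capitals mark first the codons of that run, which encode arginine only in Cacna2d1 and Cacna2d2 and have an asparagine codon in the middle in Cacna2d3, and then the codons of the metal-binding aspartate and serines, which all 3 genes encode.
Cacna2d1: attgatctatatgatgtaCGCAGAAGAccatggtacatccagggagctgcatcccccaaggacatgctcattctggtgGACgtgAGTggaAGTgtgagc
Cacna2d2: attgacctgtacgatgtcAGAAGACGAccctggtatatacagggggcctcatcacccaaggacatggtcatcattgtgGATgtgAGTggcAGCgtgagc
Cacna2d3: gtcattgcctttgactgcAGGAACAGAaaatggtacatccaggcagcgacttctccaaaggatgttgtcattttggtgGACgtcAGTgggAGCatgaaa
They are spliced from exons between bases 16264296 and 16267391 of chromosome 5 (plus strand), 107512329 and 107513248 of chromosome 9 (plus strand) and 29346965 and 29347153 of chromosome 14 (minus strand). Cacna2d1 and Cacna2d2 shared 78.8% of the 99 bases and Cacna2d1 and Cacna2d3 64.6%. These stretches describe the genes only, since the libraries counted RNA per gene and not per transcript.

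Each library held 5943 to 10438 nuclei and 68746459 to 77557870 UMIs, with a median of 4649 and 6489 UMIs per nucleus in the NS and 8664 and 8691 in the COL libraries. Nuclei were assigned by marker lists, and neurons were called glutamatergic with at least 2 UMIs of Slc17a6, the vesicular glutamate transporter, and none of Gad1 or Gad2, the GABA-synthesising enzymes, and GABA neurons in the opposite case. This gave 2228 glutamatergic and 2625 GABA neurons of 11889. Left out were 3413 neurons with both kinds, 2222 with 1 UMI of 1 kind and 1401 with none. Of the glutamatergic nuclei 893, and of the GABA nuclei 606, held exactly the minimum of 2 UMIs. With a cut above the level in oligodendrocytes, glutamatergic nuclei numbered 166, 125, 344 and 218 in NS 1, NS 2, COL 1 and COL 2. The classes held 415 to 1019 nuclei per library in neurons and 147 to 2798 in oligodendrocytes, astrocytes, oligodendrocyte precursors (OPC) and microglia, the lowest being astrocytes of COL 1. The checks not used in the gate followed the labels: Slc32a1, the vesicular GABA transporter, averaged 48.0 CPM (counts-per-million, as UMIs of a gene over all UMIs of the class) in GABA and 9.34 CPM in glutamatergic neurons, and Slc17a7 averaged 4.74 and 18.9. RNA of neurons was also found in glial nuclei, since Slc17a6 averaged 60.4 CPM in oligodendrocytes against 209.9 in glutamatergic neurons and Gad1 25.7 against 152.7 in GABA neurons. Libraries shared 8 to 31 barcodes per pair, at most 0.335% of the smaller library.

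**Figure D1:**
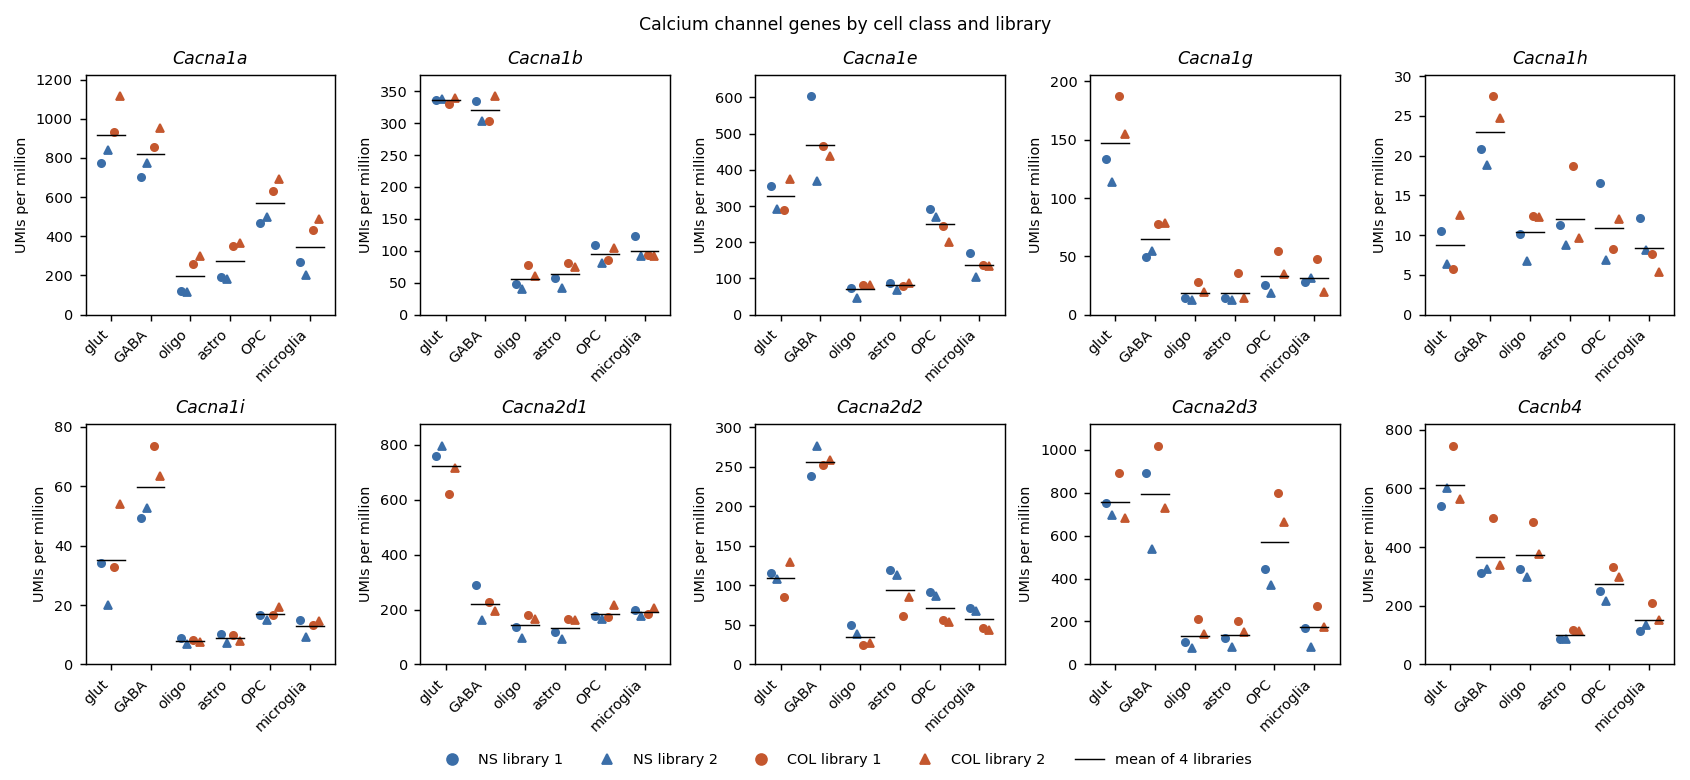
Levels of the 10 calcium channel genes in CPM (y axis, linear, from 0), with a panel for each gene and the 6 cell classes along the x axis; points are the 4 libraries (blue NS, orange COL; circle library 1, triangle library 2) and bars the mean of 4. Cacna1g and Cacna2d1 sit highest in glutamatergic neurons, Cacna1h, Cacna1i and Cacna2d2 in GABA neurons, and Cacnb4 reaches the level of GABA neurons in oligodendrocytes.

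All 10 genes were called higher in the summed neurons than in the summed glia of the same libraries. The summed neuron classes exceeded the summed glia by a log2 fold of 2.43 ± 0.11 (SE) for Cacna1g, 2.37 ± 0.14 for Cacna1b, 2.22 ± 0.11 for Cacna1i, 2.11 ± 0.18 for Cacna2d3 and 1.98 ± 0.11 for Cacna1e, with adjusted p from 5.42e-07 to 1.42e-05 (edgeR quasi-likelihood test, library as a block). The smallest differences were those of Cacna1h, at 0.56 ± 0.14 (adjusted p = 0.00785), and of Cacnb4, at 0.88 ± 0.12 (adjusted p = 0.000243). By single class and library Cacna1h was not always higher in neurons. It stood at 100.6% of its neuron level in oligodendrocytes and 151.6% in astrocytes of COL 1, and at 100.4% in OPC of NS 1. Of the 19575 genes tested in this comparison, 65.7% were called in either direction and 30.4% as higher in neurons, and the median over all genes was -0.07 against 1.89 over the calcium channel genes. Genes over 300 kb long had a median of 0.83, with 60.6% called higher, and 3 of these channel genes are of that length.

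The log2 fold here and below is edgeR's, on library sizes scaled by the TMM method, whereas a CPM is a plain share of the UMIs of a class, and a gene is called where its adjusted p (Benjamini-Hochberg, over all genes tested) is under 0.05. The T-type pores divided between the neuron classes. Cacna1g (chr11:94408391-94474198, minus strand), the main T-type pore of relay neurons, stood at 134 and 113 CPM in glutamatergic neurons of the NS libraries and 187 and 155 CPM in those of the COL libraries. In GABA neurons it stood at 49.6 and 54.3 CPM in NS and 77.7 and 78.9 CPM in COL, so that the lowest glutamatergic value lay above the highest GABA value. The log2 fold of GABA over glutamatergic neurons was -1.31 ± 0.09 (adjusted p = 5.79e-06), lower in GABA neurons in 4 of 4 libraries.

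Cacna1h and Cacna1i showed the opposite order. Cacna1h (chr17:25374285-25433783, minus strand), a T-type pore known from sensory neurons and the reticular nucleus, was at 20.9 and 18.8 CPM in NS and 27.5 and 24.7 CPM in COL GABA neurons. In glutamatergic neurons it was at 10.6, 6.34, 5.77 and 12.5 CPM in NS 1, NS 2, COL 1 and COL 2, which is the level of glia (5.40 to 18.7 CPM over the 4 classes), and rested on only 52 to 93 UMIs per library. GABA neurons were higher by 1.32 ± 0.20 (adjusted p = 0.000922), with no overlap. Cacna1i (chr15:80287238-80398279, plus strand), the T-type pore that inactivates slowest, was at 49.5 and 52.6 CPM in NS and 73.6 and 63.4 CPM in COL GABA neurons against 34.2, 20.1, 32.8 and 54.1 CPM in glutamatergic neurons. GABA neurons were the higher class in each library, with a log2 fold of 0.69 ± 0.16 (adjusted p = 0.0101), although the glutamatergic value of COL 2 exceeded the GABA values of both NS libraries.

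Among the alpha2delta genes, Cacna2d1 and Cacna2d2 differed in opposite directions and Cacna2d3 did not pass the test. Cacna2d1 (chr5:15934691-16374511, plus strand), the main gabapentin receptor, stood at 761, 796, 619.9 and 717 CPM in glutamatergic neurons of NS 1, NS 2, COL 1 and COL 2. In GABA neurons it stood at 291, 160.3, 228 and 195 CPM in the same order of libraries. This was the largest difference of the 10 genes between the neuron classes, with a log2 fold of -1.87 ± 0.14 (adjusted p = 1.07e-05). Cacna2d2 (chr9:107399612-107529343, plus strand), the other gabapentin-binding subunit and a partner of P/Q channels in Purkinje cells, was at 239, 276, 253 and 259 CPM in GABA neurons and at 116, 108, 85.1 and 129.8 CPM in glutamatergic neurons. The groups did not overlap and the log2 fold was 1.12 ± 0.10 (adjusted p = 3.18e-05). Cacna2d3 (chr14:28904943-29721864, minus strand), which does not bind gabapentin, ranged from 536 to 1017 CPM in GABA and from 683 to 894 CPM in glutamatergic neurons, and its log2 fold was -0.08 ± 0.11 (adjusted p = 0.650).

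The share of nuclei with a UMI, after each nucleus was thinned to 2000 UMIs, gave the same order for Cacna1g, Cacna1h and Cacna2d1. Cacna1g was found in 20.0, 14.4, 30.4 and 25.5% of glutamatergic and 8.93, 10.4, 12.5 and 14.6% of GABA neurons, against 2.05 to 5.52% of oligodendrocytes. Cacna1h was found in 0.420 to 2.41% of glutamatergic neurons, no more than the 1.41 to 2.59% of oligodendrocytes, and in 3.22 to 4.69% of GABA neurons. Cacna2d1 was found in 65.8 to 73.1% of glutamatergic neurons and in 33.1, 19.6, 32.1 and 26.0% of GABA neurons, of which the COL 2 share lay at that of its oligodendrocytes (26.3%). Without thinning the Cacna1g shares were 61.9 to 88.2% in glutamatergic and 35.3 to 60.2% in GABA neurons, those of Cacna1h 7.63 to 17.8% and 14.0 to 27.0%, and those of Cacna2d1 96.6 to 99.3% and 47.3 to 78.6%.

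The high-voltage pores differed less between the neuron classes. Cacna1b (chr2:24603887-24763152, minus strand), the N-type pore of nerve terminals, stood at 329.5 to 339 CPM in glutamatergic and 303 to 342 CPM in GABA neurons (log2 fold -0.19 ± 0.07, adjusted p = 0.0773). Cacna1a (chr8:84388440-84640246, plus strand), the P/Q-type pore, was at 776, 839, 933 and 1114 CPM in glutamatergic and at 700, 772, 856 and 950.5 CPM in GABA neurons. It was the higher in glutamatergic neurons of each library, by -0.28 ± 0.07 for GABA over glutamatergic (adjusted p = 0.0190), a call that was lost without NS 1, NS 2 or COL 2 (adjusted p up to 0.0758). Cacna1e (chr1:154390731-154884501, minus strand), the R-type pore, was at 603, 368, 465 and 440 CPM in GABA neurons, with NS 1 far above the rest, and at 355, 293, 289 and 376 CPM in glutamatergic neurons. Its log2 fold was 0.38 ± 0.09 (adjusted p = 0.0145), and 0.31 without NS 1 (adjusted p = 0.0887) and 0.19 without the 5% of nuclei with most UMIs (adjusted p = 0.193). Cacnb4 (chr2:52428320-52676831, minus strand), the beta subunit mutated in the lethargic mouse, was at 540.2, 600.5, 744 and 563.5 CPM in glutamatergic neurons and at 310.3, 325, 498 and 338 CPM in GABA neurons, a log2 fold of -0.87 ± 0.08 (adjusted p = 4.45e-05). In this comparison 4 of the 10 genes were thus called higher and 4 lower in GABA neurons, against 23% of the 17018 genes tested called in either direction (11.1% higher, 11.8% lower). Of genes between 100 and 300 kb long 16.6% were called higher and 26.3% lower, and of those above 300 kb 24.3 and 30.7%. With no filter on low counts, with 1 UMI setting the class or with a cut above the level in oligodendrocytes, 5 of the 10 genes were called lower. Glutamatergic nuclei were the deeper class in every library, with a median of 12732 to 19264.5 UMIs against 8471 to 14863.5 in GABA neurons.

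**Figure D2:**
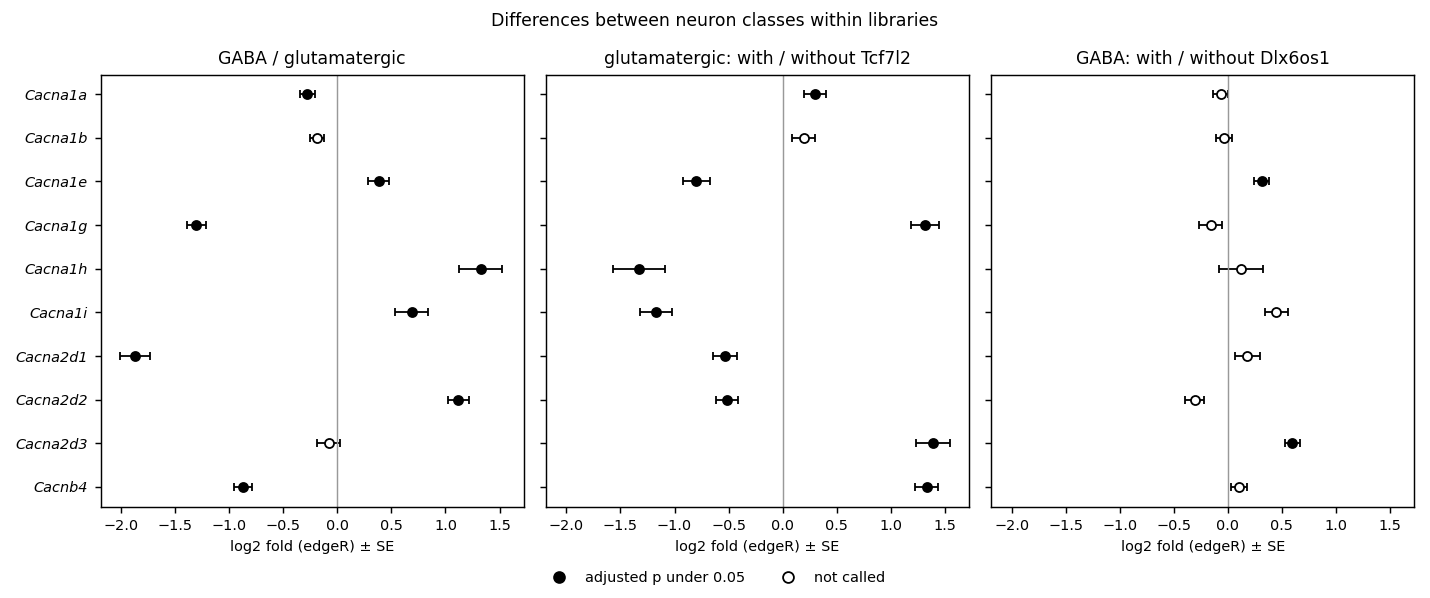
Log2 fold (x axis, edgeR estimate ± SE over 4 libraries) of the 10 calcium channel genes (y axis) for GABA over glutamatergic neurons, glutamatergic neurons with over without Tcf7l2, and GABA neurons with over without Dlx6os1; filled points had an adjusted p under 0.05. Cacna1g lies at -1.31 in the left panel and 1.32 in the middle panel, and Cacna2d3 at -0.08 and 1.39.

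Glutamatergic neurons were not uniform in these genes. Tcf7l2, a transcription factor of thalamic and habenular neurons, had at least 2 UMIs in 299 to 654 glutamatergic nuclei per library and none in 30 to 158, the fewest being in COL 1, where this set rested on 30 nuclei. With Tcf7l2, Cacna1g was at 164, 130.3, 193 and 178 CPM, and without it at 66.0, 44.2, 116 and 86.0 CPM in NS 1, NS 2, COL 1 and COL 2. The log2 fold of nuclei with over nuclei without Tcf7l2 was 1.32 ± 0.13 (adjusted p = 7.69e-07). Cacna2d3 stood at 766 to 932 CPM with and 269.9 to 507 CPM without Tcf7l2 (1.39 ± 0.16, adjusted p = 2.92e-06), and Cacnb4 at 641 to 774 CPM with and 278 to 316 CPM without (1.33 ± 0.11, adjusted p = 5.87e-08). None of these ranges overlapped.

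The other T-type pores were the higher in glutamatergic neurons without Tcf7l2. Cacna1i was at 54.5, 49.9, 96.4 and 83.4 CPM without and at 23.3, 15.4, 29.0 and 46.2 CPM with Tcf7l2, a log2 fold of -1.17 ± 0.15 for nuclei with over without (adjusted p = 1.41e-05). Cacna1h was at 12.2 to 23.5 CPM without and 4.62 to 8.95 CPM with Tcf7l2 (-1.33 ± 0.24, adjusted p = 0.000486). Cacna1e (-0.80 ± 0.13, adjusted p = 0.000137), Cacna2d1 (-0.54 ± 0.11, adjusted p = 0.00167) and Cacna2d2 (-0.51 ± 0.10, adjusted p = 0.00129) were called lower with Tcf7l2 as well, so that Cacna2d1 was highest in glutamatergic neurons without Tcf7l2, at 986 to 1114 CPM. Cacna1a was called at 0.30 ± 0.10 (adjusted p = 0.0454) and lost the call when any of the 4 libraries was left out (adjusted p = 0.0544 to 0.208), and Cacna1b was not called (0.20 ± 0.11, adjusted p = 0.230). This made 4 genes higher and 5 lower, against 19.3% of the 13970 genes tested called in either direction (10.3% higher, 8.95% lower). Long genes were called more often: 24.5% higher and 15.0% lower between 100 and 300 kb, and 30.4% higher and 27.6% lower above 300 kb. The 2 sets differed in depth, with a median of 9114 to 15784 UMIs per nucleus without and 14304 to 19711.5 with Tcf7l2.

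Set side by side, and without a test, the T-type levels of glutamatergic neurons without Tcf7l2 lay within or near those of GABA neurons. Cacna1g spanned 44.2 to 116 CPM against 49.6 to 78.9 CPM in GABA neurons, Cacna1h 12.2 to 23.5 against 18.8 to 27.5 CPM, and Cacna1i 49.9 to 96.4 against 49.5 to 73.6 CPM. Cacna2d1 did not follow this pattern, at 986 to 1114 CPM against 160.3 to 291 CPM. Cacna2d3, with 269.9 to 507 CPM in glutamatergic neurons without Tcf7l2 and 766 to 932 CPM in those with it, had GABA values of 536 to 1017 CPM, all above the range without Tcf7l2.

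Dlx6os1 was used as a marker of the prethalamic lineage that forms the reticular nucleus and zona incerta. Whether the nuclei with it came from there was not tested. GABA neurons with Dlx6os1 were few and uneven over libraries, at 219, 34, 99 and 81 nuclei, against 245 to 599 nuclei without a UMI of it. Cacna2d3 was at 1083, 727, 1421 and 979 CPM with and at 792, 510.1, 892 and 629 CPM without Dlx6os1, higher with it in 4 of 4 libraries (log2 fold 0.60 ± 0.07, adjusted p = 0.000177). Cacna1e was at 672, 482.5, 513 and 517 CPM with and at 567, 356, 453 and 412 CPM without (0.31 ± 0.07, adjusted p = 0.0363), a call lost when any of the 4 libraries was left out (adjusted p = 0.0724 to 0.122). Cacna1i had values of 56.4, 80.4, 93.1 and 70.4 CPM with and 47.3, 48.4, 59.7 and 60.1 CPM without, and its log2 fold of 0.45 ± 0.11 did not pass (adjusted p = 0.0596). Without COL 2 it was 0.54 (adjusted p = 0.0456). The other T-type pores gave -0.16 ± 0.10 (Cacna1g) and 0.12 ± 0.21 (Cacna1h), the latter on a value of 2.77 CPM in the 34 nuclei of NS 2. With 2 of the 10 genes called, against 1.13% of the 13746 genes tested (0.713% higher, 0.422% lower), Cacna2d3 was the member whose call stood in every alternative fit. Both called genes are over 300 kb long, a range in which 5.57% of genes were called higher and 3.13% lower. Nuclei with Dlx6os1 were the deeper set in every library, with a median of 9571.5 to 17764 UMIs against 8190 to 13719 without it.

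Between COL and NS, no calcium channel gene was called in either neuron class. In glutamatergic neurons 0 of 17015 genes were called by edgeR (0%), although 3345 had an unadjusted p under 0.05, and DESeq2 called 530. Of the calcium channel genes 2 had an unadjusted p under 0.05: Cacna1g, whose COL values of 187 and 155 CPM lay above the NS values of 134 and 113 (log2 fold 0.53 ± 0.18, adjusted p = 0.186), and Cacna1i, whose values overlapped at 34.2 and 20.1 CPM in NS and 32.8 and 54.1 CPM in COL (0.72 ± 0.28, adjusted p = 0.236). Cacna1a was above NS in both COL libraries, at 0.39 ± 0.17 (adjusted p = 0.274). Cacna2d1 went the other way, with both COL values (619.9 and 717 CPM) below both NS values (761 and 796 CPM), at -0.17 ± 0.16 (adjusted p = 0.582). The other 6 lay between -0.026 and 0.26, with SEs of 0.14 to 0.40, and their groups overlapped. How many of all genes had no overlap was not counted in this class. A fit of COL against NS that leaves out 1 library takes the spread from the pair of the other group, and the lone library is assumed to vary like that pair. Without COL 2 Cacna1g was at 0.74 and Cacnb4 at 0.53. Cacnb4 was at -0.037 without COL 1. Glutamatergic neurons also differed in make-up over libraries, with 301, 420, 654 and 299 nuclei with and 158, 109, 30 and 70 without Tcf7l2 in NS 1, NS 2, COL 1 and COL 2. In the nuclei with Tcf7l2 alone, where 0 of 15904 genes were called, Cacna1g was at 0.35 (adjusted p = 0.311) and Cacna1i at 0.95 (adjusted p = 0.166). Nuclei of the COL libraries carried more UMIs in each of the 6 classes, and its part in these values was not tested.

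In GABA neurons edgeR again called 0 of 17352 genes (0%), with 4507 at an unadjusted p under 0.05, and DESeq2 called 832. The largest value among the calcium channel genes was that of Cacna1g, at 49.6 and 54.3 CPM in NS and 77.7 and 78.9 CPM in COL, a log2 fold of 0.72 ± 0.14 (adjusted p = 0.0896). DESeq2, which called 182 genes higher and 650 lower, gave 0.73 (adjusted p = 0.0417), and edgeR without COL 2 gave 0.75. Cacna1i (0.56 ± 0.17, adjusted p = 0.114), Cacna1h (0.53 ± 0.18, adjusted p = 0.146), Cacna1a (0.42 ± 0.17, adjusted p = 0.178) and Cacnb4 (0.54 ± 0.24, adjusted p = 0.211) also had both COL values above both NS values and did not pass. That made 5 of the 10 genes, against 20.1% of the 17352 genes tested with both COL values above both NS values, and the groups overlapped for the remaining 5 genes. Without COL 2, Cacna1i was at 0.70 and Cacnb4 at 0.81. GABA neurons differed in make-up over libraries, NS 2 holding the fewest nuclei with Dlx6os1, and Cacna1e and Cacna2d3 were lowest in NS 2 as well. NS 2 was also the lowest library in nuclei without Dlx6os1 alone, at 356 CPM for Cacna1e and 510.1 CPM for Cacna2d3. The part of make-up in these values was not tested. In nuclei without Dlx6os1 alone Cacna1g was at 0.68 (adjusted p = 0.0625). In those nuclei edgeR called 0 of 16319 genes, and 0 of 11900 in the nuclei with Dlx6os1.

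The change with COL did not differ detectably between the neuron classes. The difference of the log2 folds, GABA minus glutamatergic, was 0.20 ± 0.17 for Cacna1g, 0.44 ± 0.40 for Cacna1h, -0.16 ± 0.34 for Cacna1i and 0.25 ± 0.12 for Cacnb4, with adjusted p from 0.973 to 0.998 over the 10 genes, and edgeR called 0 of 18401 genes (0%), with 837 at an unadjusted p under 0.05 and 0 called by DESeq2. The sign of each of these 4 values turned in at least 1 alternative fit. With these SEs the test does not show that the changes were alike.

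**Figure D3:**
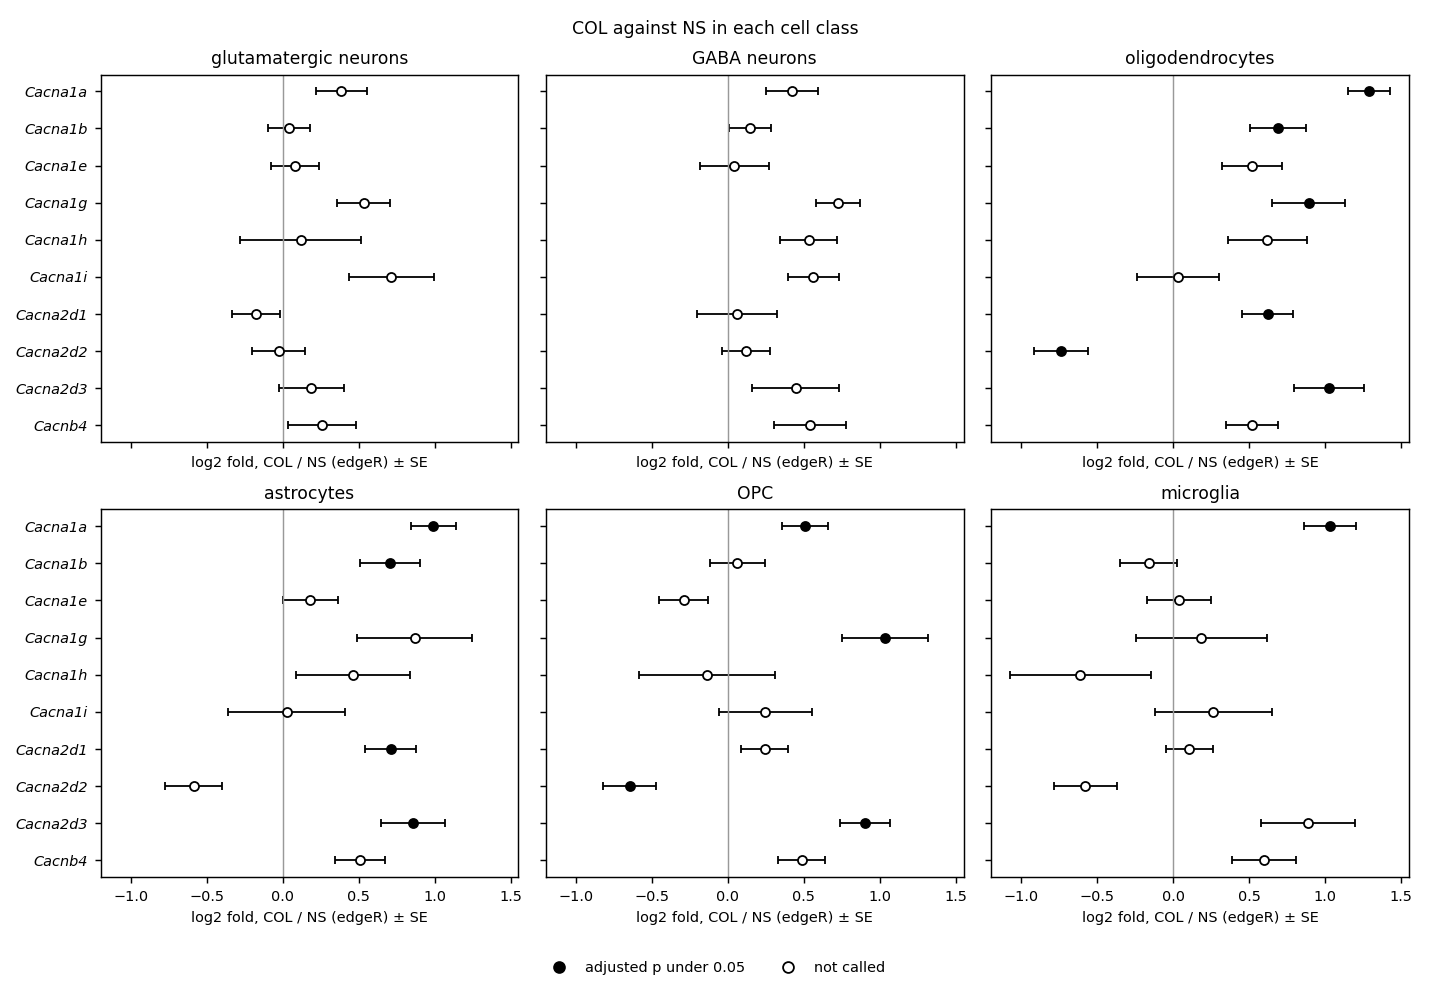
Log2 fold of COL over NS (x axis, edgeR estimate ± SE, 2 libraries a group) of the 10 calcium channel genes (y axis) in each of 6 cell classes; filled points had an adjusted p under 0.05. No point is filled in the neuron classes, Cacna1a is filled in all 4 glial classes, and Cacna2d2 is the gene with the lowest value in oligodendrocytes, astrocytes and OPC.

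In glial nuclei several of the genes were called between COL and NS. Cacna1a was called higher in all 4 glial classes. It stood at 121 and 116 CPM in NS and 261 and 299.9 CPM in COL oligodendrocytes (log2 fold 1.29 ± 0.14, adjusted p = 0.00498), at 194 and 185 against 353 and 368 CPM in astrocytes (0.99 ± 0.15, adjusted p = 0.00232), and at 267 and 202 against 432 and 488 CPM in microglia (1.03 ± 0.17, adjusted p = 0.00501). These 3 calls held whichever library was left out. In OPC it was at 469 and 497 CPM in NS and 631 and 691 CPM in COL (0.50 ± 0.15, adjusted p = 0.0449), and the call was lost without NS 1 or NS 2 (adjusted p = 0.473 and 0.270).

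Cacna2d3 was called higher in 3 of the glial classes. It rose from 104 and 75.5 to 209 and 141 CPM in oligodendrocytes (1.03 ± 0.23, adjusted p = 0.0233), from 123 and 79.7 to 203 and 151 CPM in astrocytes (0.86 ± 0.21, adjusted p = 0.0210) and from 442 and 369.9 to 796 and 663 CPM in OPC (0.90 ± 0.17, adjusted p = 0.00526). NS 2 held the lowest value in each, and without it none of the 3 passed (adjusted p = 0.0505, 0.115 and 0.0936), nor did astrocytes without COL 1 (adjusted p = 0.116). In microglia, at 170.4 and 82.5 against 273 and 176 CPM, the log2 fold of 0.89 ± 0.31 did not pass (adjusted p = 0.0774), but it did without NS 1 (1.48) or without COL 2 (1.16).

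Cacna2d2 was the member called lower. In oligodendrocytes it was at 49.8 and 38.7 CPM in NS and 24.4 and 26.6 CPM in COL (-0.74 ± 0.18, adjusted p = 0.0269), and in OPC at 91.0 and 86.9 against 55.8 and 54.1 CPM (-0.65 ± 0.17, adjusted p = 0.0290). The COL values lay below the NS values in astrocytes too, at 119 and 113 against 60.9 and 85.0 CPM, and in microglia, at 71.1 and 67.2 against 45.5 and 43.6 CPM, but these did not pass (-0.58 ± 0.19, adjusted p = 0.0549, and -0.58 ± 0.21, adjusted p = 0.0824), although astrocytes passed without COL 2 (-0.86, adjusted p = 0.0253). The oligodendrocyte call was lost without NS 1 or NS 2. The OPC call was lost when any of the 4 libraries was left out, under DESeq2 and with no filter on low counts.

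Of the remaining genes, Cacna1b, Cacna1g and Cacna2d1 were called in some glial classes. Cacna2d1 was at 135 and 97.6 CPM in NS and 179.6 and 164 CPM in COL oligodendrocytes (0.62 ± 0.17, adjusted p = 0.0388, and 0.319 without NS 2) and at 118 and 91.1 against 166 and 161 CPM in astrocytes (0.71 ± 0.17, adjusted p = 0.0167, and 0.154 without NS 2 and 0.0513 without COL 1). Cacna1b was at 48.7 and 40.1 against 77.1 and 60.5 CPM in oligodendrocytes (0.69 ± 0.19, adjusted p = 0.0383) and at 57.6 and 41.6 against 81.5 and 74.2 CPM in astrocytes (0.70 ± 0.20, adjusted p = 0.0343), and 3 of the 4 fits that leave out a library lost each call, at an adjusted p up to 0.172 and 0.243. Cacna1g was at 14.1 and 12.7 against 28.0 and 19.8 CPM in oligodendrocytes (0.89 ± 0.24, adjusted p = 0.0378) and at 25.3 and 19.0 against 54.3 and 35.3 CPM in OPC (1.03 ± 0.28, adjusted p = 0.0311), on 33 to 224 UMIs per library. Both calls were lost without NS 2 and without COL 1 (adjusted p up to 0.094 and 0.172). In astrocytes Cacna1g was called without COL 2 (adjusted p = 0.0123). Cacna1e was not called in oligodendrocytes (0.52, adjusted p = 0.0995), except without NS 1 (0.83). Genes of 100 to 300 kb, the length range of Cacnb4, had medians of 0.23 to 0.35 in the 4 glial classes. Cacnb4 had log2 folds of 0.49 to 0.60 there and passed in none of them (adjusted p = 0.0556 to 0.0809). Leaving out COL 2 made it a call in oligodendrocytes, OPC and microglia, at log2 folds of 0.74, 0.62 and 0.80, and leaving out NS 2 did so in microglia (0.77). The fits without COL 2 called 5933 of 17484, 2413 of 13697 and 3235 of 12483 genes in these classes.

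These counts stood against broad change in glia. In oligodendrocytes 5 of the 10 genes were called higher and 1 lower, where 20.2% of 16697 genes were called (8.82% higher, 11.4% lower). In astrocytes it was 4 higher and 0 lower, where 14.7% of 14113 genes were called (6.3% higher, 8.36% lower). In OPC 3 were higher and 1 lower, against 13.3% of 13072 genes (5.58% higher, 7.67% lower), and in microglia 1 was higher and 0 lower, against 16.8% of 12691 genes (8.42% higher, 8.36% lower).

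**Figure D4:**
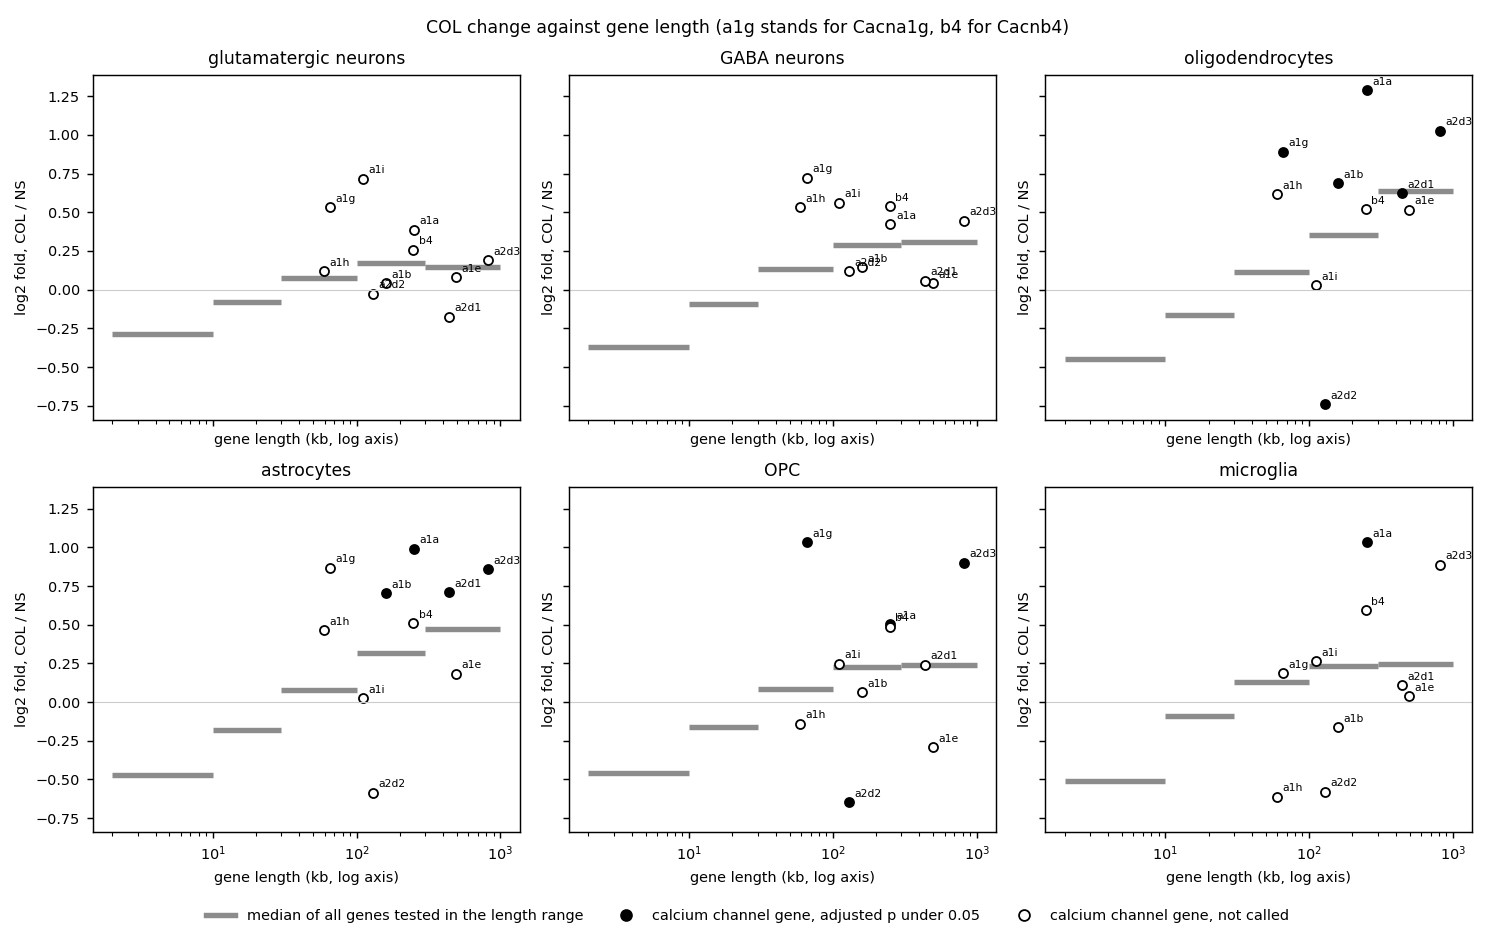
Log2 fold of COL over NS (y axis) against gene length in kb (x axis, log) in 6 cell classes; grey bars are the median of all genes tested in the ranges under 10 kb (drawn from 2 kb), 10 to 30, 30 to 100, 100 to 300 and over 300 kb, and points the calcium channel genes, filled where called. The grey bars rise with length in all 4 glial classes, from -0.45 to 0.64 in oligodendrocytes, and Cacna2d2 and Cacna1e lie below their bars in all of them, Cacna2d2 at -0.81 to -1.09 against them.

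Gene length moved with the COL change. All 10 genes are long, from 59.5 kb (Cacna1h) to 816.9 kb (Cacna2d3), and in oligodendrocytes the median log2 fold of all genes tested rose from -0.45 under 10 kb to 0.35 between 100 and 300 kb and 0.64 above 300 kb, where 49.2% of genes were called higher. In astrocytes the corresponding medians were -0.47, 0.31 and 0.47, in OPC -0.46, 0.23 and 0.24 and in microglia -0.51, 0.23 and 0.25. Against genes of its own length range, Cacna1a lay 0.94 above the median in oligodendrocytes, 0.68 in astrocytes, 0.28 in OPC and 0.80 in microglia. Cacna2d3 lay 0.39, 0.39, 0.66 and 0.64 above and Cacna2d2 at -1.09, -0.90, -0.88 and -0.81 against it. Cacna1g, on 25 to 224 UMIs per library in these classes, lay 0.78, 0.79, 0.95 and 0.052 above the median of its range. Cacna2d1 was within 0.24 of the median of its range in each class. In neurons the same trend was seen, with medians from -0.29 under 10 kb to 0.15 above 300 kb in glutamatergic and from -0.37 to 0.31 in GABA neurons. The part of gene length in these results was not tested.

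**Figure D5:**
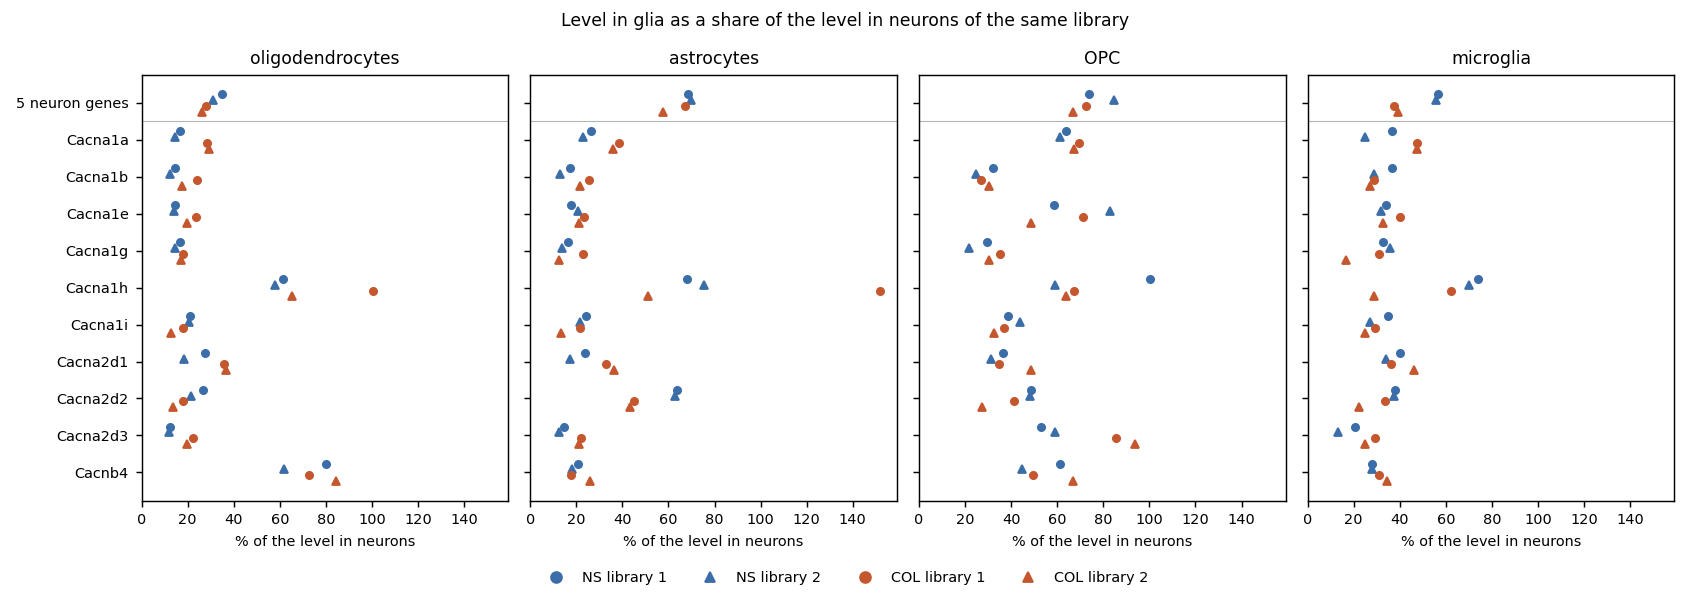
Level in 4 glial classes as a percentage of the level in the neurons of the same library (x axis, linear), for the sum of 5 neuron genes kept out of the gate (top row) and for each calcium channel gene; points are libraries (blue NS, orange COL; circle library 1, triangle library 2). In oligodendrocytes Cacnb4 lies at 62.0 to 84.3%, right of the 5 neuron genes at 26.3 to 34.9%, whereas Cacna1b, Cacna1e and Cacna2d3 lie left of them.

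In the NS libraries most of these genes lay, in glia, below the share at which 5 other neuron genes were found there. Slc12a5, Elavl4, Celf5, Syn2 and Stmn2, neuron genes that the gate did not use, summed in oligodendrocytes to 34.9 and 30.8% of their level in neurons in NS and 27.9 and 26.3% in COL. In the NS libraries 8 of the 10 calcium channel genes were below that share in oligodendrocytes, 9 in astrocytes, 9 in OPC and 9 in microglia, and at such levels expression in glia cannot be told apart from neuronal RNA in glial nuclei. In the COL libraries 6 were below it in oligodendrocytes, 9 in astrocytes, 8 in OPC and 6 in microglia, and in COL oligodendrocytes Cacna1a (28.6 and 29.2%) and Cacna2d1 (35.8 and 36.9%) lay above it. Without Syn2, a neuron gene that is itself high in astrocytes and OPC, the NS counts were 8 in astrocytes, where Cacna2d2 then lay above the neuron genes, and 5 in OPC, where Cacna1a, Cacna1e and Cacna1h then lay above the neuron genes and Cacna2d3 and Cacnb4 on either side of them. In COL oligodendrocytes without Syn2 (28.9 and 26.6%) Cacna2d1 was still above them and Cacna1a on either side. Cacnb4 lay above the share in oligodendrocytes of all 4 libraries, at 79.9, 62.0, 72.6 and 84.3% of its neuron level on 2027 to 3888 UMIs per library. Cacna1h was above the share in all 4 oligodendrocyte values and some of the other glial ones as well, on 8 to 105 UMIs. Its level in neurons was low.

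Of the 5 neuron genes, 2, 1, 1 and 2 were called lower with COL in oligodendrocytes, astrocytes, OPC and microglia. Stmn2 was called lower in all 4 glial classes (log2 folds -0.92 to -1.14, adjusted p = 0.00733 to 0.0110), with Slc12a5 lower in oligodendrocytes (-0.65, adjusted p = 0.0359) and Syn2 in microglia (-0.70, adjusted p = 0.0285). None of the 5 was called higher, and Elavl4 and Celf5 were not called. The 3 genes called lower are 38.9 to 147 kb long. In OPC, Cacna2d3 rose from 53.0 and 59.0% of its neuron level, below the 5 neuron genes (74.0 and 84.5%), to 85.5 and 93.7%, above them (72.6 and 67.1%). Without Syn2 the neuron genes stood at 56.6 and 58.0% in NS and 51.9 and 48.4% in COL OPC, so that the NS values of Cacna2d3 lay on either side of them. In microglia Cacna1a moved from 36.4 and 24.9% (56.7 and 55.6%) to 47.4% in both COL libraries (37.6 and 39.0%). Syn2 was as high in astrocytes (427 ± 31.9 CPM, SD, n = 4) and OPC (393 ± 44.1 CPM) as in glutamatergic neurons (361 ± 24.3 CPM), and without it the neuron genes stood at 41.9 and 35.3% in NS and 30.8 and 27.7% in COL astrocytes, so that Cacna1a (38.7 and 35.7% in COL) and Cacna2d1 (33.1 and 36.2%) lay above them in COL astrocytes, and Cacna2d2 in all 4 libraries (43.1 to 63.8%). The part of neuronal RNA in the glial results was not tested.

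The other 16 calcium channel subunits were described by counts. In GABA against glutamatergic neurons 13 were tested, of which 1 was called higher and 7 lower. Among the lower were Cacna1c, an L-type pore, at -1.34 ± 0.11 (adjusted p = 1.87e-05) and Cacng5, a subunit that also serves AMPA receptors, at -0.88 ± 0.14 (adjusted p = 0.00126). Of all genes 11.1% were called higher and 11.8% lower there. In glutamatergic neurons with against without Tcf7l2, 6 of 12 subunits were higher and 1 lower, Cacna1c at 1.65 ± 0.12 (adjusted p = 1.60e-08), against 10.3 and 8.95% of all genes. None of 12 was called in GABA neurons with against without Dlx6os1. Between COL and NS 5 of 12 were called higher in oligodendrocytes, 3 of 12 in astrocytes, 2 of 11 in OPC and 1 of 11 in microglia, with none lower and none called in neurons. Of all genes 8.82, 6.3, 5.58 and 8.42% were called higher in these classes. Cacna1c was called in oligodendrocytes, astrocytes and OPC (1.06 ± 0.18, 1.03 ± 0.18 and 0.80 ± 0.18), and Cacnb2, another beta subunit, in oligodendrocytes (1.21 ± 0.16, adjusted p = 0.00762) and astrocytes (1.30 ± 0.17, adjusted p = 0.00129).

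Of 9 partners of these channels, 6 to 8 were tested in each comparison. Thbs1, a thrombospondin that binds alpha2delta subunits, was called higher in COL oligodendrocytes (5.08 ± 0.42, adjusted p = 0.00182), astrocytes (3.76 ± 0.62, adjusted p = 0.00363) and microglia (5.02 ± 0.65, adjusted p = 0.00167). It was the 1 partner called higher of 7, 8 and 7 tested there, against 8.82, 6.3 and 8.42% of all genes. The part of RNA from other cells in these Thbs1 values was not tested. Klhl1, an actin-binding protein that raises T-type current, was lower in glutamatergic neurons with Tcf7l2 (-1.91 ± 0.10, adjusted p = 4.55e-10), as in GABA neurons with Dlx6os1 (-0.41 ± 0.09, adjusted p = 0.0244), and Stac, which binds L-type channels, was higher in GABA neurons (1.38 ± 0.08, adjusted p = 1.98e-06). Of 17 genes of calcium handling, 16 were tested in GABA against glutamatergic neurons. GABA neurons had 5 called higher, including the calcium buffer Pvalb (1.32 ± 0.28, adjusted p = 0.00664), and 7 lower, including the buffer Calb1 (-1.10 ± 0.10, adjusted p = 4.10e-05). Of all genes 11.1% were called higher and 11.8% lower. In oligodendrocytes, astrocytes, OPC and microglia 2 of 16, 5 of 15, 0 of 15 and 1 of 16 handling genes were called higher with COL. Of all genes 8.82, 6.3, 5.58 and 8.42% were called higher in these classes. In each class 1 was called lower, the buffer Calb2 (-1.79 to -2.49), against 11.4, 8.36, 7.67 and 8.36% of all genes. The part of neuronal RNA in these Calb2 values was not tested. Glutamatergic neurons with Tcf7l2 had 7 of 16 higher and 3 lower, against 10.3 and 8.95% of all genes. Against glia, neurons had 10 of 13 other subunits, 2 of 8 partners and 11 of 17 handling genes called higher, and 2, 5 and 1 called lower. Of all genes 30.4% were called higher and 35.3% lower. The counts of these lists in the other comparisons are likewise read against the shares of all genes given with the 10 genes.

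Over the 24 levels of 6 classes in 4 libraries, the genes with the most similar log2 pattern were Tcerg1l for Cacna1i (r = 0.968), Snhg11 for Cacna1b (r = 0.988), Gabra3 for Cacna1e (r = 0.982), Erc2 for Cacna1a (r = 0.970), Kcnq5 for Cacna2d3 (r = 0.973) and Mical3 for Cacnb4 (r = 0.974), of 10610 genes compared. Cacna1h had the weakest match, Dlx6os1 at r = 0.803, followed by Cacna2d1 with Ano5 (r = 0.933) and Cacna2d2 with Cfap36 (r = 0.937). The points share libraries and depth, and Snhg11 was a marker in the gate, so these values are a description.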

How the data were processed

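Single nuclei of 2 NS and 2 COL libraries, each a pool of 3 mice, were counted on the 10x platform. The values are raw counts of UMIs per gene and nucleus, deposited by the authors as 1 matrix per library. The submitters' processing notes name Cell Ranger 1.2.0 and mm10, and whether intronic reads and strand were used in counting is not given in the sources used here, so that reads of genes lying over a calcium channel gene on the other strand, such as Tpsg1 (Cacna1h) and Lrtm1 (Cacna2d3), may not be told apart from it.

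Nuclei with at least 50 genes and at most 5% mitochondrial UMIs were kept, 5931 to 10422 per library. Each was given to the class with the highest marker score if at least 2 of its markers were found and the next score was at most 0.7 of it. No authors' annotation of nuclei was used. No doublet caller was run, and leaving out the 5% of nuclei with most UMIs stood in for one. UMIs were summed per library and class and tested with edgeR 4.0.16 (quasi-likelihood, TMM scaling, filterByExpr, in R 4.3.3) against an adjusted p of 0.05, with the library as a block where classes of the same libraries were compared. The fits were tested on simulated counts with a set spread between libraries. This spread was the same for every gene and class and was not taken from the data. The shares below thus describe the simulation and do not give the power reached in these libraries. Between COL and NS, edgeR recovered 35.5 and 41.1% of 2-fold changes and 92.5 and 90.5% of 4-fold changes in glutamatergic and GABA neurons. In oligodendrocytes, astrocytes, OPC and microglia it recovered 46, 20.2, 25 and 20.6% of 2-fold changes. For the difference of the COL changes it recovered 5.94% of 2-fold changes. The alternatives were DESeq2 1.42.0, no filter on low counts, other UMI cuts for the neuron classes, leaving out each library, a replicate block and, chosen after seeing the data, a stricter marker lead of 0.5, a cut above the level in oligodendrocytes and nuclei without Dlx6os1 alone. Intervals and shares cover counting error only, and p-values measure the spread between pools, for which no source gives more than separate libraries.

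The members and gene lists were chosen with earlier results of these data known, and the scoring rule of the gate and the version without Syn2 were set after the data were seen. The text names all 10 genes, a few called genes of the 3 further lists, picked after their values were seen, and for 9 of the members the first of their 3 closest genes by Pearson's r of log2 CPM, among genes with a mean of at least 10 CPM. The gene lists held 16 other subunits, 9 partners and 17 calcium-handling genes. Coding stretches and positions were read from the GENCODE transcripts and annotation of GRCm38. Protein sequences were not used here. A few genes of the lists are not reported here and enter no list count or summed level.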

Additional observations from a re-analysis of the deposited data

How the results depend on the processing

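Of the 44 calls made for the 10 genes, 0 changed sign in any alternative and 28 stood in all of them. Of the calls between COL and NS, all in glia, only those of Cacna1a in oligodendrocytes, astrocytes and microglia held whichever library was left out. The other calls that stood in all alternatives were differences between cell classes. Over all genes, where the edgeR counts were 0 and 0 for COL against NS in glutamatergic and GABA neurons, DESeq2 called 530 and 832, no filter on low counts 2133 and 3134, and fits without a library 0 to 2705 and 0 to 2770. The corresponding counts of the 10 genes were 0 and 1 by DESeq2, 2 and 3 without the filter, and 0 to 2 and 0 to 3 without a library, the highest without COL 2. In glia the edgeR counts of 3375, 2069, 1733 and 2129 (oligodendrocytes, astrocytes, OPC and microglia) were 974, 643 and 1143 by DESeq2 in the last 3 and 3199 without the filter in microglia, and ranged without a library over 1898 to 5933, 952 to 1901, 797 to 2413 and 1664 to 3235. Of the 10 genes, fits without a library called 1 to 7, 1 to 5, 0 to 4 and 1 to 3, DESeq2 called 1 in OPC, the fit without the 5% of nuclei with most UMIs 2 in OPC and 2 in microglia, and no filter and the stricter marker lead 3 each in microglia. The difference of the COL changes gave 101 calls without the filter and 0 to 64 without a library. The Tcf7l2 count of 2694 was 1281 with the cut above oligodendrocytes and 1757 to 2593 without a library. The Dlx6os1 count of 156 was 72 by DESeq2, 407 without the filter, 250 with 1 UMI and 82 to 154 without a library, and its count of the 10 genes was 1 by DESeq2, 4 without the filter, 1 with the cut above oligodendrocytes and 1 to 2 without a library. Of the 66 values of the 10 genes that were not called, 28 changed sign in some fit without a library and 30 in some alternative. Among those given above were Cacna2d3 in GABA against glutamatergic neurons (0.16 without the 5% of nuclei with most UMIs, 0.069 without NS 2 and down to -0.14 without another library) and Cacnb4 in glutamatergic neurons of COL against NS (0.53 to -0.037 without a library, the lowest without COL 1). For the difference of the COL changes, the fit without the 5% of nuclei with most UMIs gave -0.080 for Cacna1g, 0.048 for Cacna1i and -0.073 for Cacnb4, 1 UMI gave 0.00288 for Cacna1i, and fits without a library gave -0.18 to 1.1 for Cacna1h and -0.62 to 0.33 for Cacna1i, with 0.24 without NS 2. The cause of these shifts was not tested.

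Libraries of the 2 groups share replicate numbers but nothing in the labels pairs them, and with 2 pairs the correlation of their deviations was 0.0457 in glutamatergic and 0.137 in GABA neurons and 0.0999 to 0.200 in glia. With the number as a replicate block, 256 of 17015 genes were called in glutamatergic and 1563 of 17352 in GABA neurons. In oligodendrocytes, astrocytes, OPC and microglia 4903 of 16697, 3196 of 14113, 2471 of 13072 and 3237 of 12691 were called. Of the 10 genes, 0 were called in glutamatergic and 1 in GABA neurons, and 8, 7, 5 and 3 in those glial classes. Depth limits Cacna1h, with 8 to 209 UMIs per library and class, and the Tcf7l2-negative set of COL 1 with its 30 nuclei.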

Other observations

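Neurons with UMIs of both Slc17a6 and the Gad genes, with 1 UMI of 1 kind or with none were left out of the neuron classes, and numbered 1217 to 2291 per library. Their levels, as mean ± SD over 4 libraries, lay between or near those of the 2 classes, with Cacna1a at 900.4 ± 145.5 CPM, Cacna1g at 114 ± 35.5 CPM and Cacna2d1 at 624 ± 69.3 CPM.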
